A study of Drosophila melanogaster with 2 samples.

Results

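The 10 genes described here act in the development of the Drosophila melanogaster trachea, the branched tubes that carry air through the fly: trh, btl, bnl, vvl, tgo, rib, salm, pnt, aop and sty. They were taken by symbol from the Ensembl annotation and are 10 of its 13968 protein-coding genes. Chromatin immunoprecipitation with sequencing (ChIP-seq) had been done with an antibody against GFP on whole embryos aged 0 to 24 h from transgenic flies that carry CG14014 fused to enhanced GFP, with 2 biological replicates and a single group. The comparison asks where along these genes the fusion protein was found. There was no other group to compare with, and the sources used here name neither the sequence that drives the fusion nor the number of embryos pooled. Whole embryos hold all embryonic cell types, and the lists do not show in which cells a peak arose.

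Tracheal cells are set aside from the ectoderm by trh, which encodes a transcription factor of the bHLH-PAS family, together with vvl, which encodes a POU-domain factor. The tgo gene encodes the bHLH-PAS partner with which the trh product binds DNA. The fibroblast growth factor encoded by bnl is made by cells near the trachea and attracts branches through its receptor, encoded by btl. The receptor signals to the nucleus through the Ras and MAPK pathway. There pnt encodes an ETS-domain activator and aop an ETS-domain repressor, and sty encodes an inhibitor of the pathway. The rib and salm genes encode nuclear factors that shape branches, with salm needed for the dorsal trunk.

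Peaks came from 4 lists that the authors deposited. The conservative list holds 3216 peaks reproducible between the replicates, the optimal list 5675 peaks, the list of replicate 1 alone 4617 and that of replicate 2 alone 2737. A summit counted for a gene when it lay in the gene or within 5 kb of it. It was a promoter summit within 500 bp of any transcription start site (TSS) of that gene, otherwise an exon or intron summit, and otherwise a flank summit. Signal is the authors' own value per peak, ranked here within a list, and its scale and the read depth are unknown. Positions are on build dm6.

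The conservative list placed 16 summits at 6 of the 10 genes, and 13 of the 16 were at pnt, aop and sty. The summits fell mostly in introns, with 11 in introns, 4 in flanks and 1 at a promoter, that of trh. No conservative summit lay at btl, vvl, tgo or salm. The 6 genes compare with 39.5% of all protein-coding genes that had a conservative summit in the gene or within 5 kb. The promoter count of 1 of 10 compares with 14.6%, and the 5 genes with an intron summit compare with 5.71%.

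The DNA under the strongest conservative summit of 5 of the genes is printed to show its base composition, read from the RefSeq release 6 genome on the + strand with the summit at the central base. The rib window is not printed. Capitals mark matches to any of 7 words searched on both strands: ACGTG (core of bHLH-PAS sites), CCGGAA (ETS factors), TATCGATA (the promoter factor Dref), TAATTA (homeodomain factors), TTAAAA (an AT word), GAGAG (GAGA factor) and ATGCAAAT (POU factors). A second pnt window was added after its values were seen, since it holds a run of repeated matches. GC content over these 101 bases was lowest at bnl (19.8%), then sty (24.8%), trh (26.7%), aop (27.7%), pnt (31.7%) and the pnt upstream window (45.5%).
trh promoter (chr3L:377681-377781): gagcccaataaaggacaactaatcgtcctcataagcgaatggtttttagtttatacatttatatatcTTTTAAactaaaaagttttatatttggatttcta
bnl intron (chr3R:19831124-19831224): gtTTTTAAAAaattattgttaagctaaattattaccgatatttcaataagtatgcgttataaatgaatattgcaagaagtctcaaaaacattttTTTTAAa
pnt intron (chr3R:23326451-23326551): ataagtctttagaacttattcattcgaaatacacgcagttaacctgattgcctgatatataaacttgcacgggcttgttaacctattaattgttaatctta
pnt upstream flank (chr3R:23347067-23347167): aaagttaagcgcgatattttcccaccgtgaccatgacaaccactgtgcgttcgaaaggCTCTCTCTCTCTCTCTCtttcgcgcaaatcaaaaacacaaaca
aop upstream flank (chr2L:2180210-2180310): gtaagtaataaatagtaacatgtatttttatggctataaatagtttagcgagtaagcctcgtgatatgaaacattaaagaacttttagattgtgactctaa
sty intron (chr3L:3418885-3418985): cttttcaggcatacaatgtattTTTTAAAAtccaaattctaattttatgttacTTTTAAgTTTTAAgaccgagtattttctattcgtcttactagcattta

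**Figure D1:**
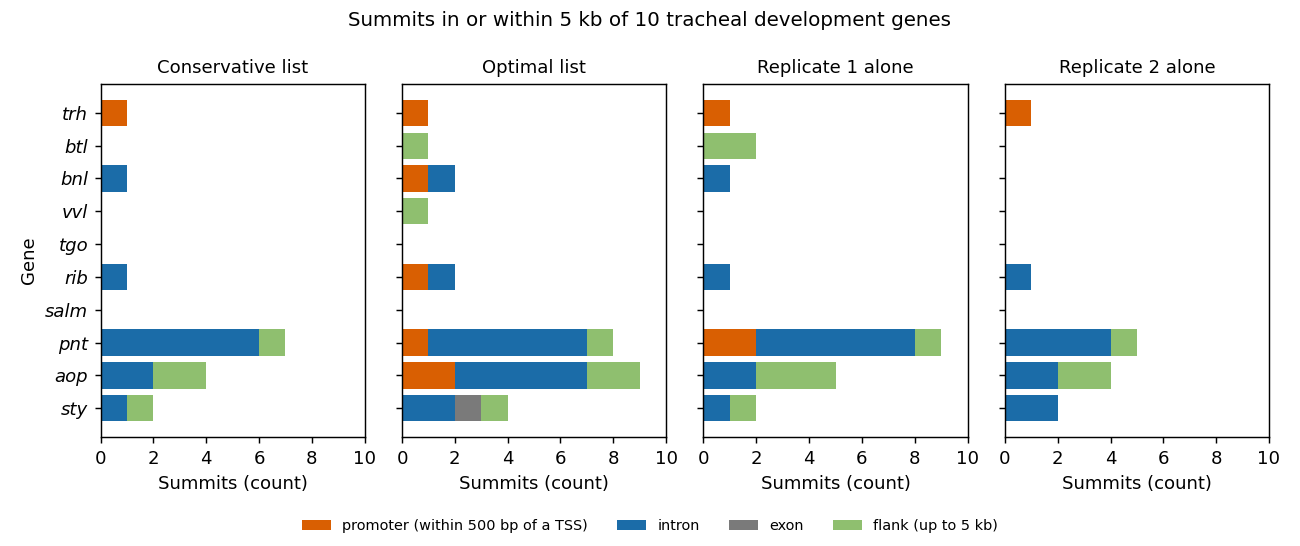
Number of summits (horizontal axis) in or within 5 kb of each of the 10 genes (vertical axis) in the 4 deposited lists, coloured by class. Summits at pnt, aop and sty make up 13 of the 16 in the conservative list, and tgo and salm have none in any of the 4 lists.

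Among the early regulators, trh (FBgn0262139, 3L, 366524 to 392633, minus strand) had 1 conservative peak, at 377692 to 377777. Its summit at 377731 lay 415 bp upstream of the internal TSS shared by trh-RA, -RB, -RD, -RE and -RG, inside the longer transcripts trh-RC and -RF, 14902 bp downstream of the distal TSS. The signal was 191, rank 864 of 3216. It was 106 in replicate 1 and 89.6 in replicate 2, and the peak was in the list of each replicate alone. This was the only summit at trh in any of the 4 lists.

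The partner gene tgo (FBgn0264075, 3R, 9016773 to 9020022) had no summit in any of the 4 lists. In the ranking of the true replicates before the threshold, its strongest peak had a signal of 62.7 and a global irreproducible discovery rate (IDR, the estimated share of irreproducible peaks among those ranked at least as high) of 0.0447, against the threshold of 0.01. That summit lay 2529 bp past the end of tgo and 22 bp from a TSS of the neighbouring gene Kcmf1. No summit of the lists thus lay within 500 bp of the tgo TSS. At trh the internal TSS had 1 within that distance, 415 bp away, and the distal TSS had none.

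The POU-domain gene vvl (FBgn0086680, 3L, 6790158 to 6794941) had no conservative summit and 1 in the optimal list, 2391 bp past its end, with a signal of 67.5 (rank 4006 of 5675). Its IDR in the ranking of the true replicates was 0.0279, and neither replicate's own list held it. Its nearest coding TSS was that of vvl, 7174 bp away.

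At rib (FBgn0003254, 2R, 19270078 to 19281396), which encodes a BTB-domain nuclear protein, a conservative summit at 19272333 lay in an intron, 2255 bp downstream of the TSS of rib-RB. Its signal was 99.8 (rank 2161), with 65.5 in replicate 1 and 39.9 in replicate 2, and both replicate lists held it. The optimal list added a promoter summit 404 bp downstream of the same TSS with a signal of 38.7, rank 5416 of 5675 and so near the end of that list. The other TSS of rib, used by rib-RA and -RC, had no summit within 500 bp.

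The zinc-finger gene salm (FBgn0261648, 2L, 11434311 to 11445614) had no summit in the 4 lists. Its strongest peak in the ranking lay 84 bp downstream of its TSS with a signal of 49.7 and an IDR of 0.303. Of the 5 transcription factor genes outside the ETS family (trh, tgo, vvl, rib and salm), then, trh and rib had conservative summits, with 1 each. The ETS genes pnt and aop had more and are described below.

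The ligand gene bnl (FBgn0014135, 3R, 19794073 to 19836817) had 1 conservative summit, at 19831174 in an intron, 5643 bp downstream of its only TSS. The signal was 135 (rank 1490) and the IDR 0.00594. The signal in replicate 1 was 115. The ranked list of replicate 2 alone held no peak that overlapped it, so no value of that replicate stands beside it. The optimal list added a promoter summit 67 bp upstream of the TSS with a signal of 60.4 (rank 4550 of 5675), which neither replicate list held.

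The receptor gene btl (FBgn0285896, 3L, 14075772 to 14083229) had no conservative summit. The optimal list had 1 in its window, in the upstream flank, with a signal of 55.9 and an IDR of 0.221 in the ranking of the true replicates. Replicate 1 alone had that summit (signal 40.6) and another in the flank (6.21). The receptor gene itself and its 2 start sites had no summit, and the ligand gene had an intron summit.

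The ETS activator gene pnt (FBgn0003118, 3R, 23290231 to 23346167, minus strand) had the most conservative summits of the 10 genes, 7, of which 6 were in introns. At least 7 conservative summits in the gene or within 5 kb were found at 0.158% of all protein-coding genes and at 1.96% of the 1020 that are at least 20 kb long. With a length of 55.9 kb, pnt had 106 summits per Mb of its window, a density reached by 11.4% of all protein-coding genes. These are counts of list entries, and overlapping peaks were not merged at pnt or at the other genes. At pnt, 2 of the 7 entries overlap and mark 1 region, as described below. The shares after merging were not computed. The strongest pnt summit, at 23326501, had a signal of 152 (rank 1252), with 85.3 in replicate 1 and 61.6 in replicate 2. It lay 12186 bp upstream of the TSS of pnt-RD and 19666 bp downstream of that of pnt-RB, which places it far from each annotated start.

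A group of 4 pnt summits lay between 10395 and 13440 bp downstream of the TSS of pnt-RB. The summit at 23335772 had a signal of 138, with 66.8 in replicate 1 and 70.0 in replicate 2. The next, at 23335021, had a signal of 84.0, with 37.9 in replicate 1 and 47.5 in replicate 2. The remaining summits, at 23332727 (signal 82.3) and 23332927 (8.33), were 200 bp apart, in overlapping peaks that matched the same peak of each replicate (51.2 in replicate 1 and 49.9 in replicate 2). These were therefore 1 region with 2 entries in the list, and merging overlapping peaks left 15 regions at the 10 genes.

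Outside this group, pnt had a summit at 23293536, 1702 bp downstream of the TSS of pnt-RC and -RE. Its signal was 83.9, with 47.8 in replicate 1 and 32.9 in replicate 2, and the list of replicate 2 alone did not hold it. A flank summit at 23347117, 950 bp upstream of the TSS of pnt-RB, had a signal of 84.3, with 40.3 in replicate 1 and 37.4 in replicate 2. No conservative summit lay within 500 bp of any of the 3 TSSs of pnt. The optimal list had 1 there, 203 bp upstream of the TSS of pnt-RD (signal 90.6, rank 2712 of 5675). Replicate 1 alone had that peak too (71.5) and another 304 bp upstream of the TSS of pnt-RC and -RE (42.6). The optimal list also added an intron summit at 23331508, 14659 bp downstream of the TSS of pnt-RB. Its signal was 73.1, and replicate 1 alone held that peak too (54.7).

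The ETS repressor gene aop (FBgn0000097, 2L, 2156484 to 2178754, minus strand) had 4 conservative summits, a count reached by 1.56% of all protein-coding genes and 9.41% of those of at least 20 kb. The strongest, at 2180260, lay 1506 bp upstream of the TSS shared by aop-RB, -RC and -RE. Its signal was 215 (rank 736), with 114 in replicate 1 and 96.7 in replicate 2. A second upstream summit, 818 bp from the same TSS, had a signal of 115, with 54.0 in replicate 1 and 68.8 in replicate 2, and a further summit lay 921 bp downstream in an intron (signal 80.1, with 40.2 in replicate 1 and 41.7 in replicate 2). These 3 summits lay on both sides of the distal start within 2427 bp of sequence, and none was within 500 bp of it.

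The other strong aop summit, at 2163648, lay in an intron 2121 bp upstream of the internal TSS of aop-RA and -RD. It had a signal of 213 (rank 742), with 116 in replicate 1 and 92.7 in replicate 2. The optimal list added 5 summits at aop, 2 at the promoter of the distal TSS (6 and 205 bp upstream, signals 37.3 and 21.1, ranks 5422 and 5468) and 3 in introns, with signals from 4.66 to 54.0. The promoter summits were thus among the weakest of the optimal list, and the 2 strong summits lay outside promoters. The 2 promoter peaks of the optimal list overlap each other, as do its intron peaks with signals of 4.66 and 54.0. The 5 added entries therefore mark fewer than 5 separate regions. Replicate 1 alone had a further intron summit at 2168388 (signal 45.5), which the other lists did not hold.

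The inhibitor gene sty (FBgn0014388, 3L, 3401153 to 3424935, minus strand) held the strongest summit of the 10 genes. At 3418935, it had a signal of 253 (rank 577), with 141 in replicate 1 and 110 in replicate 2. It lay in an intron, 974 bp upstream of the internal TSS of sty-RB and 6000 bp downstream of the distal TSS. A flank summit at 3396313, past the end of the gene, had a signal of 83.8, with 60.1 in replicate 1 and 26.2 in replicate 2. Its nearest coding TSS was that of Ids, 18045 bp away, and replicate 2 alone did not hold it. The optimal list added an intron summit (74.8), which replicate 2 alone held too (43.4), and a summit in the coding sequence (54.5).

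**Figure D2:**
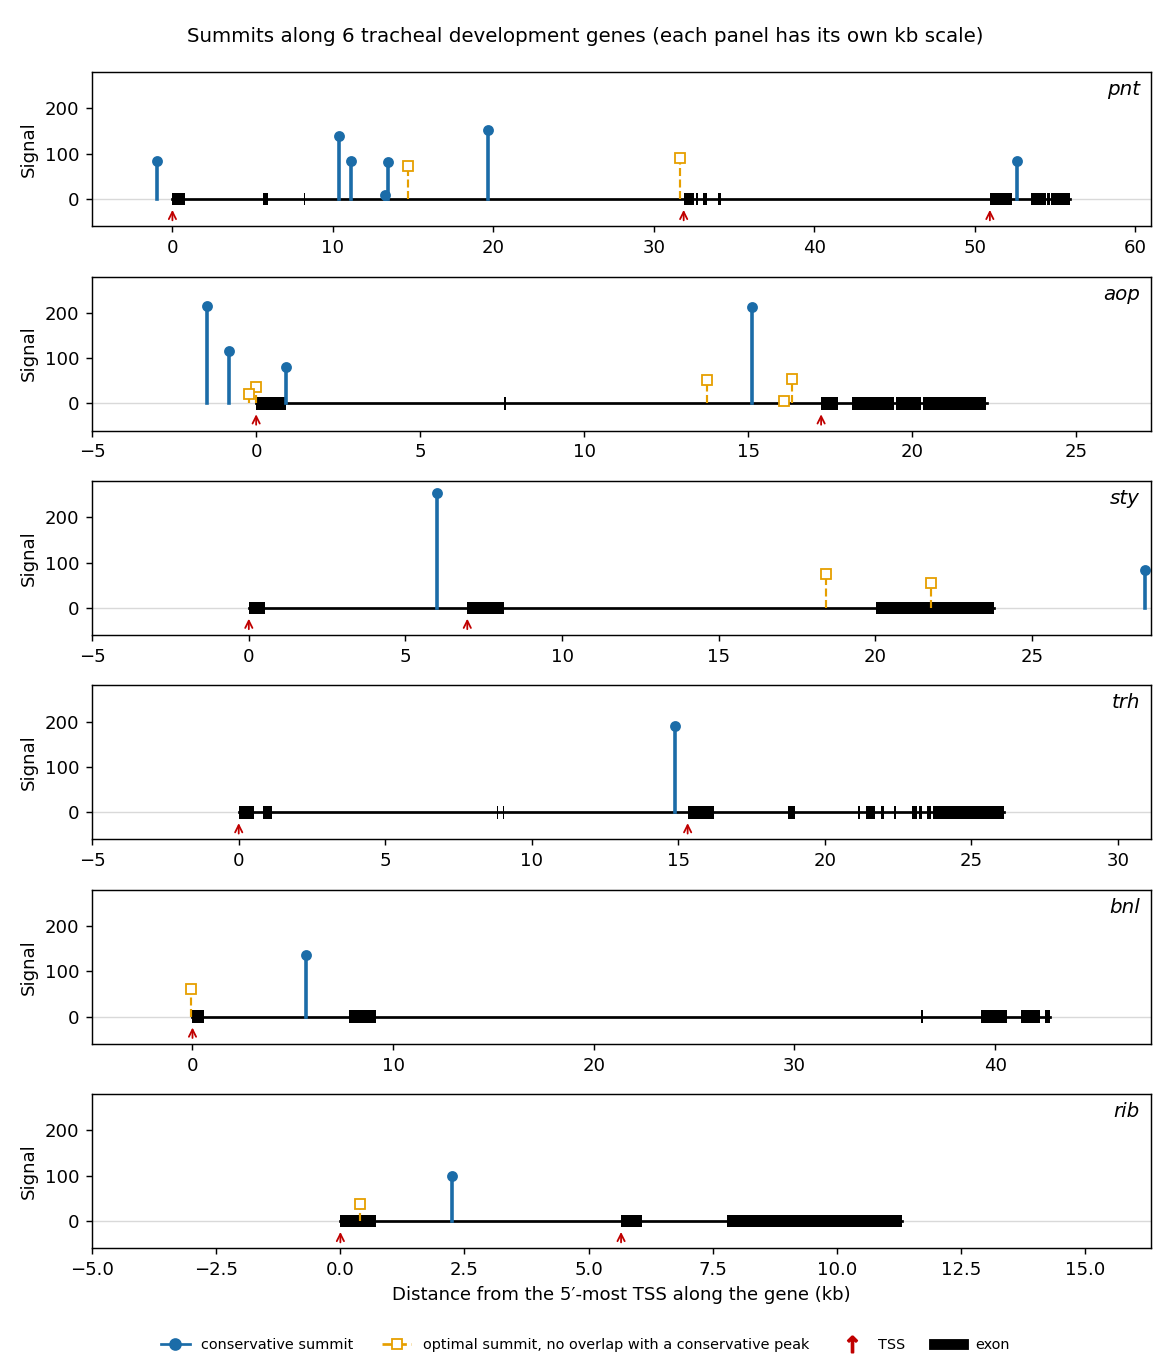
Conservative summits (filled circles) and optimal summits that overlap no conservative peak (open squares) along 6 genes, by distance from the 5′-most TSS in kb (horizontal axis) and by signal (vertical axis). Black boxes are exons and arrows are TSSs. The tallest summit is 253 at sty, and 4 of the 7 pnt summits stand 10 to 14 kb into the gene.

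Gene length bears on these counts, since a longer gene has a longer window. The median length was 16.8 kb for the 10 genes and 2.16 kb for all protein-coding genes. The 5 members of at least 20 kb (trh, bnl, pnt, aop and sty) all had a conservative summit, against 56.5% of the 1020 protein-coding genes of that length. Of the 5 shorter members 1 had one (rib), against 38.1% of shorter genes. Among the long members 4 of 5 had an intron summit, against 38.5%. With 5 genes on each side, these shares have no spread to set against them, and no test was made.

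Per length of sequence, the windows of the 10 genes held 51.8 conservative summits per Mb, against 27.5 in the windows of all protein-coding genes. The same values were 68.0 and 39.5 in the list of replicate 1 alone and 42.1 and 23.2 in that of replicate 2 alone. In introns outside promoters the 10 genes held 71.1 per Mb, against 21.8 for all protein-coding genes. Without pnt the intron value of the other 9 genes was 47.2 per Mb and the window value 37.0, from 9 summits.

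**Figure D3:**
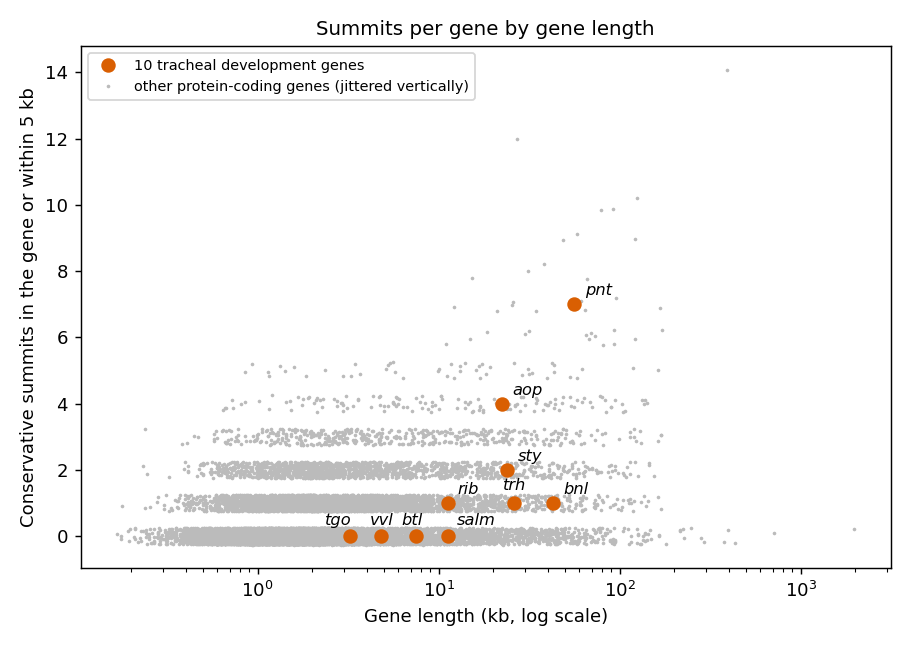
Conservative summits in the gene or within 5 kb (vertical axis) against gene length in kb (horizontal log axis), with the 10 tracheal development genes as large labelled points and other protein-coding genes as small points spread vertically for display. The gene pnt has 7 summits and aop 4, and the 4 members without a summit are all under 12 kb.

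The peaks at these genes were of middling strength within the list. Their median signal was 108 (range 8.33 to 253), against 128 over all 3216 conservative peaks, whose highest was 2570. The value of 8.33 belongs to a pnt peak that overlaps a stronger one. The median rank was 1989, and 4 of the 16 (25%) were among the 1000 strongest, against 31.1% of the list. The 4 were the intron summit of sty, both strong aop summits and the trh summit. Inside the IDR threshold of 0.01, the highest values were those of the sty flank summit (0.00743) and the bnl summit (0.00594). The pnt summits at 23347117 (0.00561) and 23335021 (0.00524) followed. Next were the aop summit at 2177833 (0.00493) and the pnt summit at 23293536 (0.00473). At an IDR of 0.001, 7 of the 16 summits remained. An intron peak of rib (0.0120, signal 64.5) and that of sty with a signal of 74.8 (0.0122) were just outside.

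Both replicates' own lists held 12 of the 16 peaks (75%, 95% Wilson interval 50.5 to 89.8), against 65.9% (64.3 to 67.5) of all conservative peaks. The overlapping pnt peaks at 23332727 and 23332927, which match the same peak of each replicate, are counted apart among the 16. The interval treats them as separate peaks. Replicate 1 alone held 15 of the 16 and replicate 2 alone 13. The exceptions were the aop summit 921 bp downstream of the distal TSS, not in replicate 1, and the bnl summit, 1 pnt summit and the sty flank summit, not in replicate 2. The ratio of replicate 2 to replicate 1 signal had a median of 0.846 over the 15 peaks with both values (range 0.435 at the sty flank summit to 1.27 at aop), against 0.816 over all conservative peaks.

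**Figure D4:**
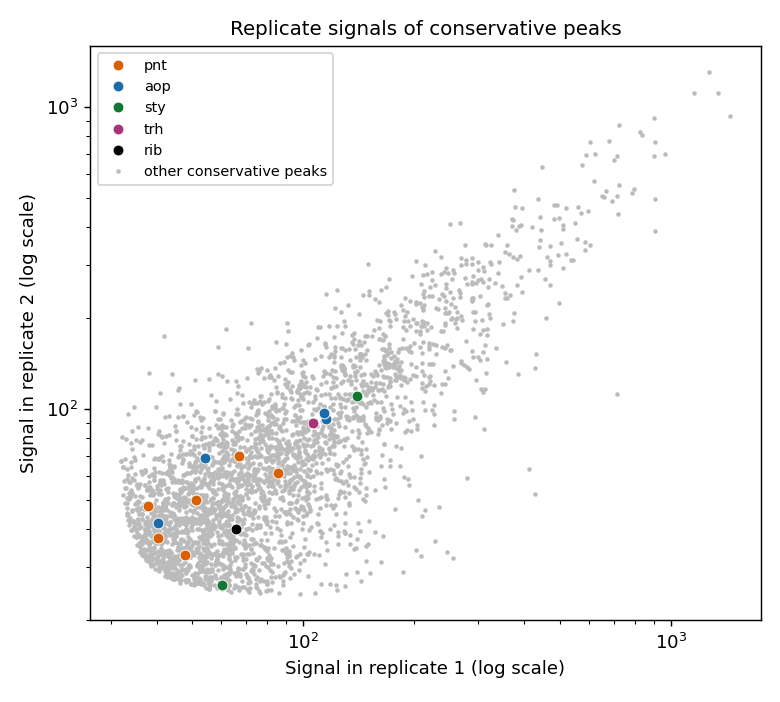
Signal of conservative peaks in replicate 1 (horizontal log axis) and replicate 2 (vertical log axis), with peaks at pnt, aop, sty, trh and rib coloured and other conservative peaks in grey. The strongest sty peak is at 141 in replicate 1 and 110 in replicate 2, no coloured peak lies above these values, and the bnl peak is not drawn because the ranked list of replicate 2 held no peak there.

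In the longer optimal list, 8 of the 10 genes had a summit, against 53.5% of all protein-coding genes. Promoter summits then appeared at 5 of the 10 (trh, bnl, rib, pnt and aop), against 21.9% of all protein-coding genes, and 4 of the 5 long members had one, against 33.7% of long genes. The members' promoter summits had signals of 191 at trh and 90.6 at pnt, and from 21.1 to 60.4 at the others. Introns held a summit at 5 of the 10, against 8.43%. Of the 28 optimal summits at the 10 genes, 15 were in introns, 6 at promoters, 6 in flanks and 1 in an exon. These are counts of list entries, and overlapping peaks, such as those at the aop promoter, were not merged. Replicate 1 alone had 21 summits at 7 of the genes and replicate 2 alone 13 at 5, and the share of all protein-coding genes with a summit was 47.3% in replicate 1 and 35.8% in replicate 2. Promoter summits were at trh and pnt in replicate 1, against 18.6% of all protein-coding genes, and at trh in replicate 2, against 13.2%. Intron summits were at 5 of the 10 genes in replicate 1, against 7.35%, and at 4 in replicate 2, against 4.83%.

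The sequence at the 16 summits was AT-rich, as in the rest of the list. GC content within 50 bp of the summit was 30.8% ± 7.83 (SD, 16 peaks) at the 10 genes and 33.7% ± 9.64 over all 3216 conservative peaks. In windows centred 300 bp to either side it was 44.4% ± 8.06 at the 10 genes and 43.5% ± 7.18 over all peaks. The summit was the lower of the values in 13 of 16 peaks (81.2%) and in 77.9% of all peaks. The GC-richest summit windows were the intron summit of aop at 2163648 (48.5%), the pnt upstream window (45.5%) and the aop flank summit at 2179572 (40.6%), and the other 13 were at or below 32.7%.

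The AT word TTAAAA was in 6 of the 16 summit windows (37.5%, 95% Wilson interval 18.5 to 61.4), against 34.9% of all conservative windows. It was at trh, bnl, rib, 1 pnt summit and both sty summits, and the strongest sty window printed above holds 4 matches, 2 of them overlapping in TTTTAAAA. The GAGA factor word GAGAG was in 3 windows (18.8%, 6.59 to 43.0), against 8.30% of all. In the pnt upstream window it made 7 overlapping matches in an uninterrupted CT repeat. The others were the pnt summit at 23332727 and the aop summit at 2179572, with 1 match each.

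The words searched for the bHLH-PAS, ETS and POU families, to which trh, tgo, pnt, aop and vvl belong, were not in these windows. The bHLH-PAS core ACGTG, bound by the trh and tgo products, was in 0 of 16 windows (which allows a share of up to 19.4% by the Wilson interval), against 6.16% of all conservative windows. The ETS word CCGGAA was in 0 of 16, against 2.30%, and the POU word ATGCAAAT in 0 of 16, against 1.77%. The Dref word TATCGATA was also in 0 of 16, against 1.65%, and the homeodomain word TAATTA in 1, at the pnt summit at 23293536, against 10.2%. With 16 windows, shares as low as those of the whole list were not distinguishable from 0.

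Of 40 other genes of tracheal development, 39 matched a symbol in the annotation, all but dp. A conservative summit lay in or within 5 kb of 19 of the 39 (48.7%), at the promoter of 7 (17.9%) and in an intron of 13 (33.3%), against the 39.5%, 14.6% and 5.71% of all protein-coding genes given above. Gene length bears on these shares too. Of the 18 that are at least 20 kb long, 11 had an intron summit (61.1%), against 38.5% of protein-coding genes of that length, and 12 had any summit (66.7%), against 56.5%. Of the 21 shorter ones, 2 had an intron summit (9.52%), against 3.13% of shorter genes, and 7 had any summit (33.3%), against 38.1%. No test was made of these shares. The strongest promoter summit was at spi, the ligand gene of the EGF receptor (signal 352, rank 317, 188 bp upstream of a TSS). It was followed by shot, a cytoskeletal linker gene (262, 85 bp upstream), aos, which encodes an inhibitor of the EGF receptor (141, 347 bp upstream), and bs, the serum response factor gene of terminal cells (111, 16 bp upstream). Those of shg (92.3), the E-cadherin gene, of pyd (76.2), a junction protein gene, and of Mmp1 (60.4), a matrix protease gene, were weaker.

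Among these other genes, stumps, the adaptor gene of the receptor encoded by btl, had 2 summits in its window, none of them at a promoter or in an intron. The genes csw, Ras85D and rl, which act between the receptor and the ETS factors, had none. The strongest intron summit of aos had a signal of 352, that of sima, the hypoxia factor gene, 302, and that of crb, an apical polarity gene, 240. The transcription factor genes kni, knrl, salr, esg, dysf, ems and grn had no conservative summit in their windows, and grh and ttk had intron summits with signals of 174 and 93.5.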

How the data were processed

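The authors deposited peak lists on build dm6, per the labels. Per the labels, sonication gave fragments of 200 to 800 bp. The sources used here name no aligner or peak caller. Signal is the deposited value per peak, on a scale that is not stated. The ranked lists carry the −log10 of the global IDR as deposited by the authors. The possible control experiment was not used here. No file gives read counts, so depth is unknown.

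The summit was the peak start plus the summit offset. Genes, exons and TSSs came from Ensembl release 115, and the 10 genes had the same coordinates in RefSeq release 6, whose sequence was used. Replicate signals came from each replicate's own ranked list, joined by the peak coordinates that the ranking of the true replicates gives. Percentages of peaks have 95% Wilson intervals, which cover counting error only. All 10 genes and every conservative summit at them were described. From the other tracheal genes, up to 10 with a promoter summit were named by signal, and the intron and absent genes were named after their values were seen. Members and lists were chosen with earlier results of these data known. No test was made. The functions gave the right result for 200 of 200 simulated summits, placed at promoters, at the edge of the flank or just outside the window. Intron and exon summits were not simulated. The work used matplotlib 3.10.9, scipy 1.17.1, pandas 2.3.3 and numpy 2.4.6 under Python 3.11.15.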

Additional observations from a re-analysis of the deposited data

How the results depend on the processing

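Between 4 and 8 of the 10 genes had a summit under the alternative lists and windows. Of 87 recomputed values, 65 were within 1.5 times the reported count, within its interval or within 1 SD. Genes with a promoter summit numbered 1 in the conservative list, 5 in the optimal list, 2 at an IDR of 0.05, 0 with promoters of 200 bp and 4 with promoters of 1000 bp. Promoter summits numbered 1, 6, 2, 0 and 5 in the same order. Summits in the windows numbered 16, against 28 in the optimal list and 7 at an IDR of 0.001, and per Mb they were 51.8, against 90.6 and 22.7. For all protein-coding genes the density was 48.1 in the optimal list and 16.1 at an IDR of 0.001. Intron summits fell to 4 at an IDR of 0.001. Exon summits were 1 in the optimal list and 1 at an IDR of 0.05. Flank summits were 2 at an IDR of 0.001, 11 with windows of 10 kb, 0 with the gene body alone and 2 with promoters of 1000 bp. In the list of 1 replicate alone (leaving out the other), genes with a summit were 5 to 7 and genes with a promoter summit 1 to 2. Promoter summits were then 1 to 3, intron summits 9 to 11, flank summits 3 to 7, all summits 13 to 21 and summits per Mb 42.1 to 68.0. The conservative peaks were also ranked by the signal of 1 replicate. The median rank of those at the 10 genes was then 1879.5 for replicate 1 (16 peaks) and 1924 for replicate 2 (15 peaks). The cause was not tested for any of these. The splits at 20 kb, the intron densities and the counts of genes with 4 or 7 summits were added after the data were seen. No paired analysis was possible because the labels give 1 group.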
